A study of Mus musculus with 13 samples.

Results

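Camkv, Sncb and Sncg are 3 of the 53465 genes in a TPM table (transcript abundance corrected for length, which sums to 1000000 in each library) from mouse ovaries and ovarian tumors. Camkv and Sncb were chosen by their tumor and ovary values in this table, as genes whose TPM was higher in all 10 tumors than in all 3 ovaries. Sncg was added by name as a synuclein, and its values went the other way. All 3 genes were found in the table. The comparison sets 10 MP tumors beside 3 wild-type (WT) ovaries from C57BL/6 mice that had no treatment. The genotype of the tumors is Myc;p53-/-, made by EPO-GEMM, in which plasmids are electroporated into an organ of a living mouse. In this case the left ovary of female WT C57BL/6 mice aged 8 to 12 wk received Cas9 with an sgRNA against Trp53, together with a Sleeping Beauty transposase and a transposon that overexpresses MYC. The tumors also received no treatment. Electroporation reaches any cell type under the electrodes, in ovary and fallopian tube. Whole tumors were taken at end point, so stroma, blood and neighbouring tissue could enter the RNA, and the age of the mice that gave the WT ovaries is not given separately.

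Camkv encodes a calmodulin kinase-like protein of synaptic vesicles. It keeps the fold of the CaM kinases, which calcium-bound calmodulin activates, but lacks their catalytic activity, and in neurons it helps maintain dendritic spines. The synucleins are small proteins that bind membranes of synaptic vesicles. Sncb encodes β-synuclein, abundant at presynaptic terminals in brain, and Sncg encodes γ-synuclein, found in peripheral neurons and also in adipocytes and some carcinomas.

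The identity of each transcript rests on its sequence, and Sncb and Sncg resemble one another, so the start of each coding sequence is shown to let a reader see how far apart they are. In GENCODE M21 the first coding exon holds 121 coding bases in both. The first 120 coding bases follow, on the minus strand of GRCm38, with capitals at the 96 positions where Sncb and Sncg have the same base. They lie at chr13:54765564-54765683 (Sncb) and chr14:34374461-34374580 (Sncg).
Sncb: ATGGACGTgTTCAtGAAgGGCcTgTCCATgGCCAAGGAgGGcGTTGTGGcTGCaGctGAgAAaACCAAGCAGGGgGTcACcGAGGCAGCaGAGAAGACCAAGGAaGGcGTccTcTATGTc
Sncg: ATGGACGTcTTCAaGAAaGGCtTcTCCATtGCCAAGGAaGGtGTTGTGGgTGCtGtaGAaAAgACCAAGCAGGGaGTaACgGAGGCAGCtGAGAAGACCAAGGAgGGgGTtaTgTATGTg
Camkv: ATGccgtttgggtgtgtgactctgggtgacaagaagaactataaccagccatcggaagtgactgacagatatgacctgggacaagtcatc
The last line gives the first 90 coding bases of Camkv at chr9:107945288-107945377, on the plus strand, with its start codon in capitals. Sncb differed from Sncg at 24 of these 120 bases. Over whole coding sequences of 402 and 372 bases, identity among aligned bases was 69.8% between them. Camkv, with 1539 coding bases, was closest to Camk1 among 4 CaM kinase I genes, at 66.0% identity. At the read length of 76 bases, 0 of 3908 windows of Camkv transcripts, 0 of 2066 of Sncb and 0 of 777 of Sncg also occurred in a transcript of another gene. An exact read from these transcripts therefore had a single gene of origin in this annotation.

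Depth, worked back from the steps of TPM times transcript length, was 31445004 to 64013840 reads (median 50522020) in WT ovaries and 3892690 to 19906507 reads (median 8543975) in MP tumors. The number in the library names puts all 3 WT ovaries and MP tumors 1 to 3 in set 1, MP tumors 4 to 6 in set 2 and MP tumors 7 to 10 in set 3. WT ovaries carried the summed transcripts of 10 ovarian somatic markers at 28249 to 34120 TPM, against 11.9 to 2269 TPM in tumors. The 12 epithelial and serous tumor markers summed to 14.6 to 1297 TPM in tumors and 350 to 378 TPM in ovaries. Their medians in tumors ran from 0 TPM (Pax8, highest tumor 23.2 TPM) to 31.2 TPM (Krt8, highest tumor 425 TPM). Trp53, the edited gene, was below every ovary in 9 of 10 tumors and reached 187 TPM in MP tumor 10. An indel need not lower the transcript, so this RNA level does not check the label. In MP tumor 2, 10 genes took 55.1% of all TPM. Over all 17277 tested genes limma called 2.51% higher and 14.3% lower. Among tissue and proliferation markers, it called lower 9 of 10 ovarian somatic, 9 of 9 oocyte, 5 of 11 epithelial, 2 of 6 fibroblast and 3 of 5 endothelial genes tested, and higher 4 of 8 proliferation, 2 of 7 erythroid and 1 of 4 skeletal muscle genes.

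Camkv (ENSMUSG00000032936, chromosome 9, from 107935674 to 107949691, plus strand) was close to undetected in ovary and clearly transcribed in every tumor. WT ovaries 1 to 3 had 0.161, 0.115 and 0.0545 TPM, from 9, 4 and 4 reads. MP tumors 1 to 3 had 3.59, 33.6 and 1.64 TPM, MP tumors 4 to 6 had 35.3, 8.61 and 86.5 TPM, and MP tumors 7 to 10 had 31.3, 166, 78.3 and 29.6 TPM. The groups did not overlap, MP tumors 3 and 1 were the lowest of the tumors, and MP tumor 8 stood well above the rest. Tumor values rested on 41 (MP tumor 5) to 3815 reads. MP tumor 3, the lowest in TPM, had 54 reads, and its 95% Poisson interval (1.23 to 2.14 TPM) lay above the highest bound of any ovary (0.306 TPM). Such intervals cover counting error alone, and the values are those that chose Camkv, so no support for a difference is drawn from them. The mean was 47.4 ± 50.4 TPM (SD, n = 10) in tumors and 0.110 ± 0.0534 TPM (SD, n = 3) in ovaries, a difference of 4.57 on the log2(TPM + 1) scale. No test is given for Camkv or Sncb here, because this difference chose them. Every tumor lay above every ovary in 3.02% of the 17277 genes tested, and nothing is read from the members' place among them. In the antisense gene Gm37974, which overlaps Camkv, all ovaries and 9 tumors were listed at 0.

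Sncb (ENSMUSG00000034891, chromosome 13, from 54758860 to 54766595, minus strand) was likewise nearly silent in ovary, but its tumors fell into a wide range. WT ovaries 1 to 3 had 0.157, 0 and 0.0239 TPM, from 5, 0 and 1 reads. In WT ovary 2, a count of 0 allows up to 0.152 TPM (3 reads), and the exact Poisson interval used for the other libraries reaches 0.187 TPM. MP tumors 1 to 3 had 55.5, 8.47 and 79.9 TPM, MP tumors 4 to 6 had 0.267, 5.90 and 42.7 TPM, and MP tumors 7 to 10 had 47.9, 17.9, 39.1 and 0.300 TPM. In 8 tumors the interval, which covers counting error alone, lay above that of every ovary, a description of the values that chose Sncb. MP tumors 4 and 10 were the exceptions: each held 1 read, and their intervals (up to 1.49 and 1.67 TPM) took in the ovaries' values. Against the 6 reads of the pooled ovaries, the ratio was 4.16 (exact 95% interval 0.0904 to 34.3) for MP tumor 4 and 4.67 (0.101 to 38.5) for MP tumor 10. These intervals too cover counting error alone, on values that chose Sncb, so no verdict on a difference is drawn from them. The mean was 29.8 ± 27.2 TPM (SD, n = 10) in tumors and 0.0603 ± 0.0846 TPM (SD, n = 3) in ovaries, a difference of 3.87 on the log2(TPM + 1) scale.

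The criterion of no overlap was met narrowly by Sncb, with its lowest tumor at 0.267 TPM and the highest ovary at 0.157 TPM, and widely by Camkv, at 1.64 against 0.161 TPM. Genes just outside it were sought only where limma called a rise and the mean over all libraries was at least 10 TPM. In order of log2 difference, Piwil2 and Catsperz were the first of these to miss it. Piwil2 had a log2 difference of 3.95 but a lowest tumor of 1.34 TPM under an ovary at 1.66 TPM. Catsperz had 3.69, with 0.823 TPM under 0.834 TPM. Each had 9 of 10 tumors above every ovary.

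Sncg (ENSMUSG00000023064, chromosome 14, from 34370274 to 34374789, minus strand) was lower in tumors, which goes against a reading of all 3 genes as switched on there. WT ovaries 1 to 3 had 9.88, 4.59 and 5.78 TPM, from 125, 36 and 96 reads. MP tumors 1 to 3 had 2.94, 0.211 and 1.07 TPM, MP tumors 4 to 6 had 0.672, 1.86 and 0.834 TPM, and MP tumors 7 to 10 had 0.969, 4.22, 3.53 and 1.51 TPM. Every tumor lay below every ovary, as in 16.4% of tested genes, but 6 tumors held 3 reads or fewer and the tumors together held 66. In 3 tumors the counting interval lay wholly below that of every ovary. Sncg fell, with a mean of 6.75 ± 2.78 TPM in ovaries (SD, n = 3) and 1.78 ± 1.34 TPM in tumors (SD, n = 10), a log2 change of -1.57 (standard error 0.46, adjusted P = 0.0295 by limma), and an exact permutation test over the 13 samples, 2-sided, gave P = 0.00699, the smallest it can give. Over all 17277 genes the median log2 change was -0.58, against which this fall is to be read. The call was lost when each library was rescaled by median-of-ratios factors (log2 change -1.05, adjusted P = 0.0915 by limma) or quantile normalized (-0.66, adjusted P = 0.280), and without WT ovary 1 (adjusted P = 0.179), 2 (0.0693) or 3 (0.101), always with the same direction. In bulk tissue, fewer cells of a type and less RNA per cell cannot be told apart, for this and every gene below. Nothing in the labels says more of the replicates than that they are separate samples, so P values measure the spread between these samples.

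**Figure D1:**
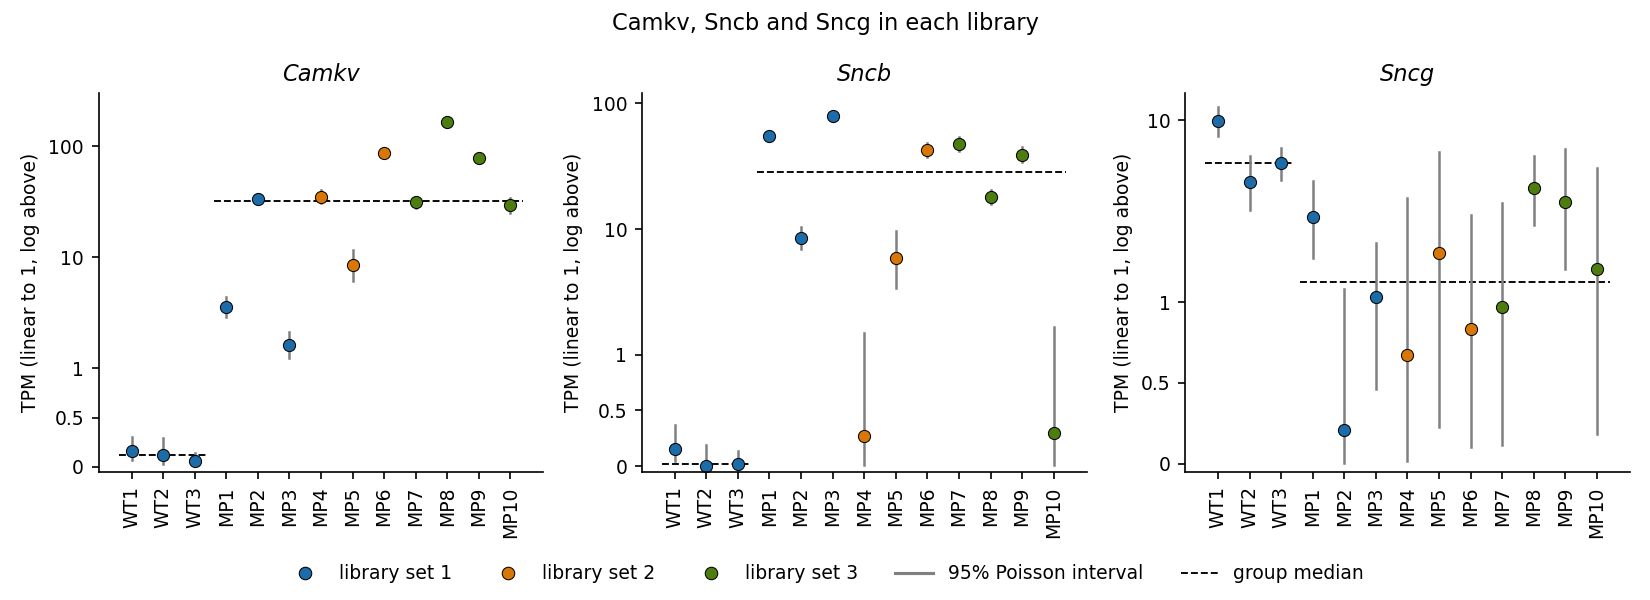
TPM of Camkv, Sncb and Sncg (y axes, linear up to 1 and logarithmic above) in each of the 3 WT ovaries and 10 MP tumors (x axes); points are libraries colored by library set, gray bars are 95% Poisson intervals and dashed lines are group medians. Camkv tumors sit between 1.64 and 166 TPM above all ovaries, Sncb tumors between 0.267 and 79.9 TPM with MP4 and MP10 near the ovaries, and Sncg tumors between 0.211 and 4.22 TPM below all ovaries.

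Of Sncb and Sncg, the one with more transcripts per length was Sncg in every ovary and Sncb in 8 tumors. Sncb made up 0 to 1.56% of their summed TPM in WT ovaries and 76.1% to 98.7% in those 8 tumors, while in MP tumors 4 and 10 it was 28.4% and 16.6%. Sncb was chosen for being higher in tumors, so nothing is read from the direction of this shift. The sum was 4.59 to 10.04 TPM in ovaries. It was 7.75 to 81.0 TPM in the 8 tumors, and MP tumors 4 and 10 had 0.939 and 1.81 TPM. The values of MP tumors 4 and 10 rest on 2 and 3 reads of both genes together, and the Poisson intervals of Sncb and Sncg overlap in both.

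**Figure D2:**
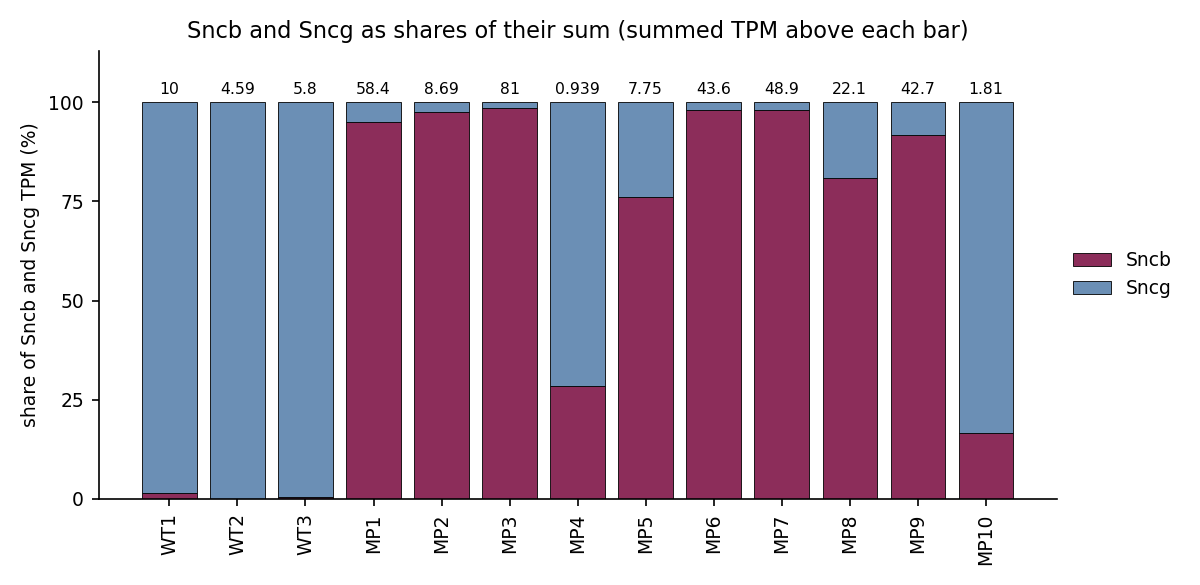
Share of the summed TPM of Sncb and Sncg (y axis, percent) taken by each gene in each library (x axis), with the summed TPM printed above each bar. Sncg takes nearly the whole bar in the 3 ovaries, Sncb takes 76.1% to 98.7% in 8 tumors, and the bars of MP4 and MP10 rest on 2 and 3 reads.

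Camkv and Sncb did not rank the tumors alike. MP tumor 3 had the lowest Camkv (1.64 TPM) and the highest Sncb (79.9 TPM), MP tumor 4 had Camkv at 35.3 TPM with 1 read of Sncb, and MP tumors 6 and 9 were high in both. Over the 10 tumors, in log2(TPM + 1), Pearson's r was -0.20 (permutation P = 0.578, adjusted P = 0.817) and Spearman's rho -0.31 (permutation P = 0.384, adjusted P = 0.887). Without MP tumors 3 and 1, the 2 farthest from the median of Camkv, r was 0.43. Camkv and Sncg gave r = 0.14 (permutation P = 0.700, adjusted P = 0.817) and rho = 0.03 (permutation P = 0.945, adjusted P = 0.945), with r = 0.41 without the same 2 tumors. Sncb and Sncg gave r = 0.25 (permutation P = 0.478, adjusted P = 0.817) and rho = 0.19 (permutation P = 0.608, adjusted P = 0.887), with r = 0.11 without MP tumors 4 and 10. These belong to a family of 21 relations, none of which passed adjustment. The library sets hold 3, 3 and 4 tumors, too few for a value within each. With the mean of each set taken out, r was -0.0031 for Camkv and Sncb, -0.17 for Camkv and Sncg and 0.32 for Sncb and Sncg.

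**Figure D3:**
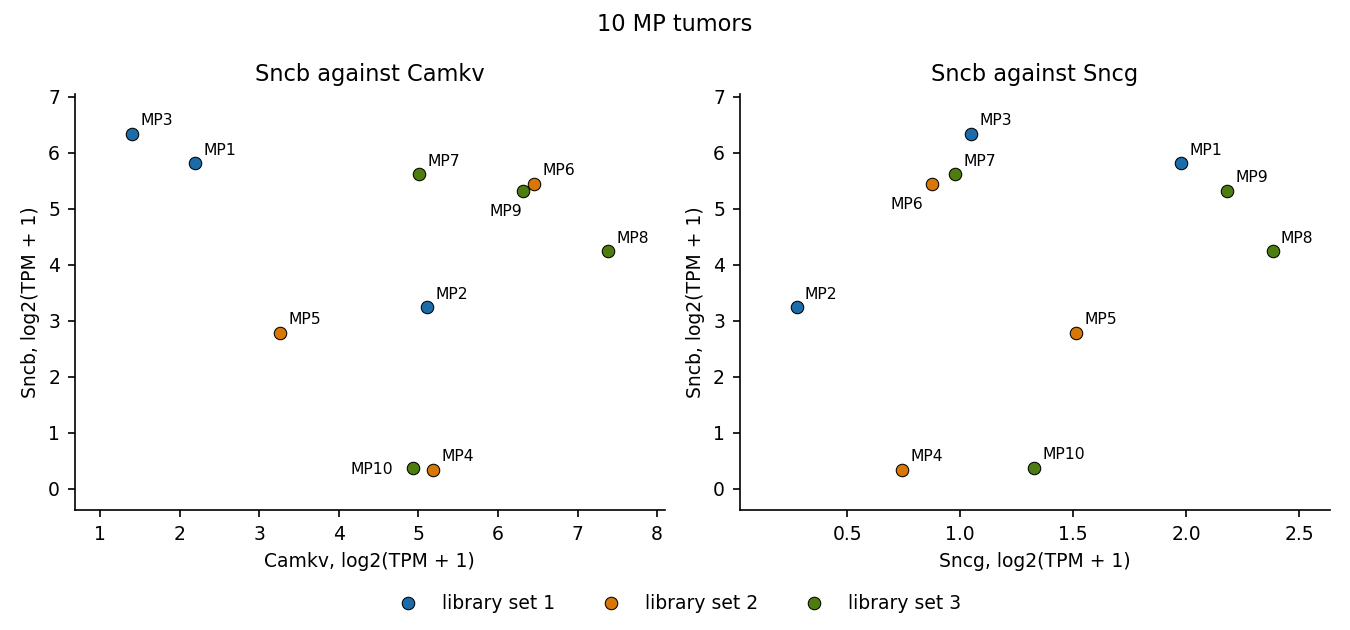
Sncb against Camkv (left) and against Sncg (right) in the 10 MP tumors, each in log2(TPM + 1), with points colored by library set. MP3 is lowest in Camkv and highest in Sncb, and MP4 and MP10, which hold 1 Sncb read each, lie at the bottom of both panels.

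The other 18 relations set each gene against the summed TPM of 6 lists of cell type or proliferation markers in the tumors. Camkv gave r between 0.11 (adipocyte markers) and 0.43 (neuron markers), and Sncb between -0.43 (adipocyte) and 0.41 (proliferation). Without the 2 tumors farthest from the median of each sum, Camkv ran from -0.065 (epithelial) to 0.70 (proliferation) and Sncb from -0.24 (proliferation) to 0.27 (immune). With the mean of each library set taken out, Camkv ran from -0.51 (immune) to 0.084 (epithelial), Sncb from -0.50 (adipocyte) to 0.65 (neuron) and Sncg from 0.21 (adipocyte) to 0.69 (immune), with no adjusted P under 0.287. Sncg gave its highest values with immune cell markers, at r = 0.70 (permutation P = 0.0257, adjusted P = 0.505) and rho = 0.72 (permutation P = 0.0234, adjusted P = 0.491), and r = 0.61 without MP tumors 2 and 5. With adipocyte markers, a cell type known for Sncg, r was 0.38 (permutation P = 0.278, adjusted P = 0.796) and rho 0.35 (permutation P = 0.328, adjusted P = 0.887), and r was 0.67 without MP tumors 6 and 4. Between the groups, the 9 adipocyte markers summed to 140 to 677 TPM in ovaries and 17.8 to 316 TPM in tumors, with 1 of 8 tested lower, where 14.3% of all genes were. WT ovaries 1 to 3 had 677, 513 and 140 TPM of this sum, and the order of Sncg among them (9.88, 4.59 and 5.78 TPM) was not the same. Immune cell markers summed to 139 to 293 TPM in ovaries and 31.0 to 223 TPM in tumors, with 1 of 6 tested lower, against the same 14.3%. The part of these cells in the Sncg difference was not tested.

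The other CaM kinases were counted next, Camkv left out because it was chosen on this difference. Of these 11, all tested by limma, 0 were higher and 1 was lower at an adjusted P under 0.05. Over all tested genes 2.51% were called higher and 14.3% lower. By limma-voom 0 of the 11 were higher and 1 lower, where 2729 of 17277 genes were higher and 17.6% lower. At an unadjusted P under 0.05, a cut not counted over all genes, 0 of the 11 were higher and 2 lower. In library set 1 alone 8 were lower, and 6 with library set as a covariate, settings that called 57.3% and 49.4% of all genes lower. Without WT ovary 1, 2 or 3 in turn 0 were lower (of all 17277 genes 1158, 1195 and 1185). Without MP tumor 5, 2 were lower (of all genes 18.2%). Their median log2 change was -0.70, near the -0.58 of all genes. Camk2g, the CaMKII subunit most abundant in ovary, fell, with a mean of 83.5 ± 4.29 TPM in ovaries (SD, n = 3) and 23.02 ± 15.9 TPM in tumors (SD, n = 10), with the highest tumor at 58.4 TPM under the lowest ovary at 80.9 TPM (log2 change -2.12, adjusted P = 0.0238 by limma). That call was lost without any 1 of the 3 WT ovaries (adjusted P up to 0.102). The brain subunits of CaMKII varied among tumors without passing: Camk2a had 0.131 to 0.564 TPM in ovaries and 0.0723 to 19.4 TPM in tumors, above every ovary in 8 (log2 change 1.50, adjusted P = 0.190 by limma). Camk2b had 1.48 to 2.47 TPM in ovaries and 0.0628 to 57.6 TPM in tumors, above every ovary in 4 (0.53, adjusted P = 0.714). Camkv made up 4.78% to 60.9% of the family's summed TPM in tumors and at most 0.0906% in ovaries, a direction that follows from how Camkv was chosen.

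Among 4 genes acting above and beside these kinases, limma called 0 higher and 1 lower, where 2.51% of all genes were higher and 14.3% lower. By limma-voom the counts were 0 and 1, where 2729 of 17277 genes were higher and 17.6% lower. At an unadjusted P under 0.05, a cut not counted over all genes, they were 0 and 1. The lower count was 2 in library set 1 alone and with set as a covariate, and 3 with the replicate block, settings that called 57.3%, 49.4% and 56.9% of all genes lower. The calmodulin genes Calm2 and Calm3, whose product binds calcium and then the kinases, had log2 changes of -0.49 and -0.84, neither past the test. Camk2n1, an inhibitor of CaMKII, fell, with a mean of 28.8 ± 6.45 TPM in ovaries (SD, n = 3) and 1.87 ± 1.83 TPM in tumors (SD, n = 10). Its highest tumor, at 4.66 TPM, was well under its lowest ovary, at 22.2 TPM (log2 change -3.61, adjusted P = 0.000336 by limma). The related inhibitor Camk2n2 did not pass (-0.34, adjusted P = 0.687 by limma).

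Other transcripts of the synaptic vesicle were counted in the same way. Of 32 vesicle and SNARE genes, 23 were tested, 1 rose and 1 fell, with a median log2 change of -0.72, where 2.51% of all genes were called higher and 14.3% lower. By limma-voom 6 were lower (of all genes 17.6%), in library set 1 alone 16 and with library set as a covariate 11 (of all genes 57.3% and 49.4%), and 2, 3 and 5 without MP tumors 2, 9 and 10 in turn (of all genes 13.9%, 18.9% and 17.2%), with 1 higher each time. Limma-voom called 2729 of all 17277 genes higher. Syngr1, a vesicle membrane protein also made outside neurons, rose, with a mean of 11.1 ± 2.68 TPM in ovaries (SD, n = 3) and 30.2 ± 7.81 TPM in tumors (SD, n = 10), every tumor above every ovary (log2 change 1.34, adjusted P = 0.0160 by limma). This call was lost without WT ovary 2 or 3 (adjusted P up to 0.107). Syn1, which tethers vesicles to actin, fell, with a mean of 5.31 ± 1.42 TPM in ovaries (SD, n = 3) and 0.682 ± 0.709 TPM in tumors (SD, n = 10), every tumor below every ovary (log2 change -1.98, adjusted P = 0.00178 by limma). Snap25, the neuronal SNARE protein of the plasma membrane, was at 0 to 0.111 TPM in tumors, Slc32a1, the vesicular GABA transporter, was at 0 in every library, and Slc17a7, a vesicular glutamate transporter, was at 0 to 0.733 TPM in tumors.

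Neuron markers differed widely among themselves in the tumors. Of 21 neuron markers 12 were tested by limma. Of these 12, 0 rose and 1 fell, where 2.51% and 14.3% of all genes did, and their median log2 change was -0.49. By limma-voom 0 rose and 2 fell, where 2729 of 17277 genes rose and 17.6% fell. At an unadjusted P under 0.05, a cut not counted over all genes, 0 rose and 4 fell. Of the 21 markers, 0 were at 0 in all tumors. In library set 1 alone 8 were lower and with library set as a covariate 5 (of all genes 57.3% and 49.4%), against 0 under both rescalings, at a pseudocount of 0.1 and without WT ovary 1, 2 without MP tumor 5 and 3 without MP tumor 7 or 10 (of all genes 18.2%, 12.2% and 17.2%). Their sum was 295 to 518 TPM in ovaries and 79.3 to 682 TPM in tumors, of which Uchl1, a ubiquitin hydrolase that is not limited to neurons, was 183 to 382 TPM and 28.0 to 610 TPM. Prph, a peripheral neurofilament, had a median of 13.9 TPM in tumors (1.11 to 419 TPM) and lay above every ovary in 8 of them, and Nefh, the heavy neurofilament, had a median of 0.977 TPM (0 to 135 TPM) and lay above every ovary in 7. Tubb3, a neuronal tubulin, had 4.72 to 112 TPM in tumors and 34.2 to 51.6 TPM in ovaries, and Rbfox3, a splicing factor of mature neurons, reached 30.1 TPM with a median of 0.111 TPM. At the low end, the RNA-binding protein gene Elavl3 reached 0.222 TPM at most in tumors, Dcx 0.313 TPM and Stmn2 0.770 TPM. Of these genes Prph, Nefh, Tubb3 and Rbfox3 were tested and did not pass, and the part of neurons in the levels of Camkv and Sncb was not tested. Snhg11, a noncoding RNA abundant in neurons, was the marker that fell (log2 change -1.05, adjusted P = 0.0150 by limma), a call lost under both rescalings, at a pseudocount of 0.1 and without WT ovary 1 (adjusted P up to 0.394). Of 15 neuroendocrine markers 5 were tested, and limma called 0 higher and 1 lower, against the same 2.51% and 14.3%. The fall was in Scg3, a granin of secretory granules, from a highest ovary of 2.66 TPM to a highest tumor of 0.289 TPM, and Dbh was at 0 in every tumor. By limma-voom 1 was higher and 1 lower, against its counts over all genes given above. At an unadjusted P under 0.05 the counts were also 1 and 1. Ddc, which makes dopamine and serotonin from their precursors, had 0.588 to 16.8 TPM in tumors, above every ovary in 9 (log2 change 1.23, adjusted P = 0.140 by limma), and Scg5 reached 115 TPM with a median of 1.22 TPM. The 15 markers' sum was 12.2 to 13.3 TPM in ovaries and 1.70 to 121 TPM in tumors. Glial and Schwann cell markers summed to 57.9 to 68.9 TPM in ovaries and 1.91 to 76.5 TPM in tumors, with 0 of 4 tested past the limma threshold and Foxd3 at 0 in every tumor. Of these 4, 1 was lower by limma-voom, where 17.6% of all genes were, and 1 at an unadjusted P under 0.05.

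REST, with its corepressors, holds many neuronal genes silent outside the nervous system, so its complex was counted too. Of 9 genes, all tested by limma, 1 rose and 0 fell, where 2.51% of all genes were called higher and 14.3% lower. The median log2 change of the 9 was -0.59. By limma-voom 1 rose and 0 fell, where 2729 of 17277 genes rose and 17.6% fell. At an unadjusted P under 0.05, a cut not counted over all genes, 1 rose and 1 fell. Rest itself had 28.2 to 33.3 TPM in ovaries and 4.41 to 33.5 TPM in tumors, below every ovary in 9 of 10 (log2 change -1.19, adjusted P = 0.127 by limma). It was called lower in library set 1 alone (-2.20, adjusted P = 0.000442 by limma), with library set as a covariate (adjusted P = 0.000639) and with the replicate block (adjusted P = 0.000340), and under none of the other 18 alternatives. These 3 settings called 57.3%, 49.4% and 56.9% of all genes lower, and nothing is read from them for Rest. Rcor2, a corepressor paralog of Rcor1, rose, with a mean of 5.39 ± 0.430 TPM in ovaries (SD, n = 3) and 53.7 ± 47.3 TPM in tumors (SD, n = 10). Its lowest tumor, at 7.75 TPM, lay above its highest ovary, at 5.84 TPM (log2 change 2.62, adjusted P = 0.0178 by limma). The call was lost with library set as a covariate and without any 1 WT ovary (adjusted P up to 0.0822). Rcor1 did not pass (-1.09, adjusted P = 0.290 by limma).

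**Figure D4:**
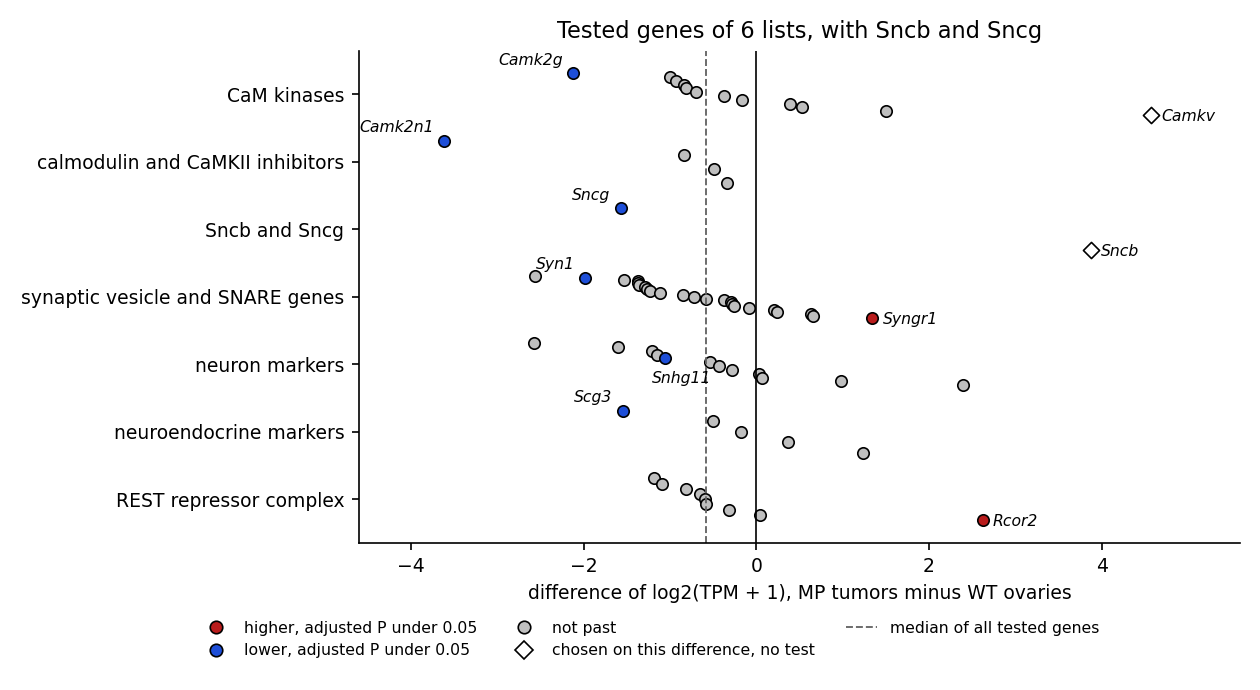
Difference in mean log2(TPM + 1) between MP tumors and WT ovaries (x axis) for the tested genes of 6 lists and for Sncb and Sncg (rows), with red and blue points for genes called higher and lower by limma, gray points for genes not past the threshold, open diamonds for Camkv and Sncb, which were chosen on this difference and have no test, and a dashed line at the median of all tested genes (-0.58). Syngr1 and Rcor2 are the only tested genes of these lists called higher, and Sncg, Camk2g, Camk2n1, Syn1, Snhg11 and Scg3 are called lower.

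Genes beside the 3 loci were compared next, taking the 3 nearest protein-coding genes on each side, against 2.51% of all tested genes called higher and 14.3% lower. Limma-voom called 2729 of all 17277 genes higher, and the unadjusted cut was not counted over all genes. At Camkv, Traip, a ubiquitin ligase of replication stress that starts 445 bases past the end of Camkv, rose, with a mean of 3.80 ± 0.623 TPM in ovaries (SD, n = 3) and 17.2 ± 6.85 TPM in tumors (SD, n = 10). All tumors (9.17 to 31.1 TPM) lay above all ovaries (log2 change 1.84, adjusted P = 0.00641 by limma), and the call was narrowly lost without WT ovary 3 (adjusted P = 0.0503). Mst1r, Mon1a and Uba7, the other tested neighbours, had log2 changes of -1.60, -1.59 and -1.68, not past the test. At Sncb, 0 of 5 neighbours tested by limma were higher (0 at an unadjusted P under 0.05, 0 by limma-voom) and 2 were lower. Eif4e1b, an oocyte translation factor, fell, with a mean of 22.4 ± 4.38 TPM in ovaries (SD, n = 3) and 0.0530 ± 0.107 TPM in tumors (SD, n = 10; log2 change -4.46, adjusted P = 1.51e-08 by limma). Tspan17 fell from 37.8 to 9.29 TPM in the mean (-2.18, adjusted P = 0.0228 by limma), a call lost under both rescalings and without any 1 WT ovary (adjusted P up to 0.131). At Sncg, 0 of 5 were higher by limma (again 0 at an unadjusted P under 0.05, 0 by limma-voom) and 2 were lower. They were Fam25c (-1.87, adjusted P = 0.000358 by limma) and Mmrn2, an endothelial matrix protein 676 bases away, which fell, with a mean of 34.7 ± 3.48 TPM in ovaries (SD, n = 3) and 6.47 ± 6.29 TPM in tumors (SD, n = 10; -2.79, adjusted P = 0.0218 by limma). The Mmrn2 call was lost at a pseudocount of 0.1 and without any 1 WT ovary (adjusted P up to 0.0984). The 5 endothelial markers summed to 269 to 283 TPM in ovaries and 6.04 to 189 TPM in tumors, 3 of them lower by limma, and the part of those cells in its fall was not tested.

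All 3 genes matched a RefSeq promoter window (GRCm38.p6, 250 bases before to 50 after the start). The Camkv window, chr9:107935670-107935969, lay almost wholly inside the GENCODE gene, which starts at 107935674. The Sncg window, chr14:34374620-34374919, also reached into its gene, which ends at 34374789 on the minus strand. Counts over whole windows therefore include sequence inside the annotated genes. The parts of these windows that lie upstream of both the GENCODE and the RefSeq gene, the latter starting further upstream in Sncb, are shown for Sncb (223 bases) and Sncg (130 bases), since these genes moved apart, with CG dinucleotides, the sites of DNA methylation, in capitals. Their lengths differ, so the CG counts are to be read from the whole windows given after them. They lie on the minus strand at chr13:54766623-54766845 (Sncb) and chr14:34374790-34374919 (Sncg).
Sncb: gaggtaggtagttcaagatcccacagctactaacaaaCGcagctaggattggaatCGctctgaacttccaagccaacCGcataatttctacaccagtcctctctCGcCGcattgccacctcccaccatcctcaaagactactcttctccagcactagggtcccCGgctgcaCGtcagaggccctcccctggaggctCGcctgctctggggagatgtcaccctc
Sncg: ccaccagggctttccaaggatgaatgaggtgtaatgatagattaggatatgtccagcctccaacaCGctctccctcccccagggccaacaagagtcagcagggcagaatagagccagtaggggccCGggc
Whole windows held 25 CG dinucleotides in Camkv, 15 in Sncb and 9 in Sncg, against a median of 7 over 32851 windows. Their GC content was 68.3%, 62.0% and 61.3%, against a median of 52.7%. On either strand, the GC box GGGCGG was found 3 times in Camkv, 2 times in Sncb and 1 time in Sncg, and 35.7% of all windows held it. The E-box CACGTG, a sequence that MYC can bind, was in none of the 3 windows and in 7.15% of all. TATAAA (13.6% of all windows) and TGACGTCA (1.79%) were in none of the 3 either. No match says only that these letters are absent from these windows.

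Because all ovaries belong to set 1, the sets were compared within tumors. Camkv was lower in the 3 tumors of set 1, at 12.9 ± 17.9 TPM (SD, n = 3), than in the 7 of sets 2 and 3, with a mean of 62.2 TPM (log2 difference -2.60, standard error 0.86, adjusted P = 0.0350 by limma). In this contrast 30.1% of all tested genes were called lower in set 1 and 1.29% higher, with a median of -0.84 over all genes. Rescaling by median-of-ratios factors took Camkv to -1.43 (adjusted P = 0.335 by limma), and the call was also lost without MP tumor 1, 3, 6, 8 or 9 (adjusted P up to 0.184). Sncb went the other way without passing, at 48.0 ± 36.3 TPM in set 1 (SD, n = 3) and a mean of 22.02 TPM in the others (1.69, adjusted P = 0.297 by limma). Sncg did not pass (-0.33, adjusted P = 0.643 by limma). Within set 1 alone, with 3 tumors and 3 ovaries, the log2 difference from ovary was 2.75 for Camkv and 5.05 for Sncb, and Sncg was lower by the test (-1.79, adjusted P = 0.0104 by limma), in a comparison that called 57.3% of all genes lower with a median of -1.19.

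The genes whose level over the 10 tumors was most like each member were taken by Pearson's r in log2(TPM + 1), as a description. For Camkv they were Gm16124 (r = 0.91), Gm5857 (0.90), Gm17022 (0.87), Prpf39 (0.87) and Krtcap3 (0.87). Gm16124 is an antisense gene on the same chromosome, with 22.1 to 27.2 TPM in ovaries, so it was not near 0 there as Camkv was. For Sncb they were Them6 (0.93), Gm9761 (0.91), the proteasome subunit gene Psmd7 (0.90), Tmed2 (0.90) and Vti1b (0.88). Them6 had 12.0 to 17.6 TPM in ovaries and 15.1 to 123 TPM in tumors. For Sncg they were Gm21960 (0.95), the erythropoietin receptor gene Epor (0.93), Mybpc2 (0.92), Adssl1 (0.91) and Bin2 (0.89), set against Sncg values of 1 to 22 reads. Points share libraries of unequal depth, and the best of 17277 genes over 10 tumors reach high r in any case.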

How the data were processed

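Bulk RNA of 3 WT ovaries and 10 MP tumors was read as polyA libraries of 76 bp single-end reads. The authors deposited 1 table of TPM values, not pooled, with gene coordinates and lengths. The submitters' processing notes name FastQC 0.11.5, Trimmomatic 0.36, STAR 2.5.3a, featureCounts 1.6.3 and the build mm10/GRCm38, while the protocol text names hg19, HTSeq and RPKM. Mouse genes and TPM are what the table holds, and 96.2% of its 53465 genes lie exactly where GENCODE M21 puts them. Columns were matched to samples by the label that equals the column name, and 0 columns belonged to other samples. Columns of the authors' own comparisons were not used here.

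TPM times length is a whole multiple of 1 step per library for 100% of values (tolerance 0.01 reads), and that step gave the reads and the exact 95% Poisson intervals. Pairs of libraries of 1 group differed by more than sampling noise (chi-square per degree of freedom 28.4 to 657), so each counted once. Genes with at least 1 TPM in at least 3 libraries (17277) were compared as log2(TPM + 1) with limma 3.58.1 (trend, robust) in R 4.3.3, and P values were adjusted by Benjamini-Hochberg over all of them with a threshold of 0.05. On this scale the change of a weakly expressed gene is understated. TPM is a share, so a few abundant genes lower all others. Correlations used 100000 permutations, 2-sided. The limma and limma-voom fits of the group comparison were run on simulated reads with known changes. The spread between the simulated libraries was set and not taken from these data, so that run does not vouch for the calls here. Tables were handled with pandas 2.3.3 in Python 3.11.15.

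The members, the marker and pathway lists and the tests were chosen with earlier results of these data known. Named genes are the members, Trp53, up to 4 genes of each pathway list (the 2 with the largest statistic in each direction among those called, otherwise the 2 most abundant), the 3 nearest protein-coding genes on each side of each member, and the 5 genes most like each member. Camk2a, Camk2b, Camk2n2, Calm2, Calm3, Rest, Rcor1, Snap25, Slc32a1, Slc17a7, the single markers and the neighbours of the criterion were named after their values were seen. Alternatives changed the pseudocount (to 0.1), the filter, the scaling, the tool (limma-voom on the reads), the library sets, single libraries and a replicate block. Some genes of the lists are not reported here, and protein sequences were not used here.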

Additional observations from a re-analysis of the deposited data

Results flagged for a closer look

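Of 21 measures over the 10 MP tumors, in TPM, 6 had a highest tumor separated from the next by more than Dixon's 95% limit for 10 samples. That limit assumes normally distributed values, for which about 1 in 20, or 1.05 of 21, would pass. TPM is skewed toward high values, so the 6 are a description and are not read as an excess over chance. Camkv was one of them, with MP tumor 8 at 166 TPM and the next tumor at 86.5 TPM. The other 5 were summed marker levels. MP tumor 9 stood apart in neuroendocrine markers (121 TPM, next 30.9 TPM) and fibroblast markers (4632 TPM, next 2428 TPM). MP tumor 4 stood apart in epithelial and serous tumor markers (1297 TPM, next 670 TPM) and oocyte markers (33.1 TPM, next 16.4 TPM). MP tumor 1 stood apart in skeletal muscle markers (1757 TPM, next 417 TPM). MP tumor 8 stood apart in none of these sums, and Sncb and Sncg had no tumor that did.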

How the results depend on the processing

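Sncg was lower in MP tumors than in WT ovaries under all 21 alternatives run, while the direction of Camkv and Sncb is fixed by how they were chosen. Its call was lost under 4 of them besides single ovaries: limma-voom on the reads (log2 change -1.35, adjusted P = 0.0550), median-of-ratios scaling (-1.05), quantile normalization (-0.66) and a pseudocount of 0.1 (-2.16). Sncg ranged from -1.77 to -1.29 when single libraries were left out, and the call was lost without any 1 WT ovary. Camkv had a log2 difference of 8.48 with voom and 6.88 with a pseudocount of 0.1, and Sncb 8.82 and 6.32, since both settings add less to low values.

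Counts over all genes moved far more. Against 433 higher and 2463 lower, set 1 alone gave 1112 and 9902, set as a covariate 894 and 8534, and the voom, median-of-ratios and quantile settings gave 2729, 1276 and 1904 higher. The share of calls that were higher went from 15.0% to 47.3%, 40.2% and 47.7% under those 3 settings. Leaving out single libraries gave 94 to 635 higher and 1158 to 3264 lower, with fewest when a WT ovary was left out, and 635 without MP tumor 2.

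Between library sets within tumors, the 223 higher and 5195 lower genes became 2397 and 1815 with voom, 2356 and 1708 with median-of-ratios scaling and 1661 and 1377 with quantile normalization. Single tumors left out gave 46 to 343 higher (46 without MP tumor 3) and 2830 to 5565 lower (2830 without MP tumor 2). Camkv lost its call with voom (-2.22), median-of-ratios (-1.43), quantile normalization (-1.32) and no filter (-2.60, adjusted P = 0.0664, with 29931 genes tested), and ranged from -3.71 to -1.85 when single tumors were left out. Sncg, never past the test, turned to 0.44, 0.33 and 0.56 under the first 3 settings and ranged from -0.77 to 0.086 when single tumors were left out.

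Replicate numbers 1 to 3 occur in both groups. Deviations of same-numbered libraries from their group means had r = -0.0963, -0.0214 and 0.00118, so the numbers do not pair the samples. With the number as a replicate block among those 6 libraries, 1095 genes were higher and 9838 lower, and Sncg was at -1.79 (adjusted P = 0.000208 by limma). None of the 21 relations had an adjusted permutation P under 0.05 in any of its 13 alternatives. The cause of these shifts was not tested. Depth limits Sncg and the low Sncb values most, where 1 read was worth up to 0.928 TPM of Sncg and 0.369 TPM of Sncb.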

Other observations

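Sncb was set against library depth over the tumors after the values were seen, a relation not among those planned, and it did not pass adjustment. Against the logarithm of reads per library, r was 0.68 (permutation P = 0.0334, adjusted P = 0.1002 over 3 relations) and rho 0.68 (permutation P = 0.0348, adjusted P = 0.104), with r = 0.62 without MP tumors 3 and 5. MP tumors 4 and 10, with 4192117 and 5464497 reads, had 1 read each, but MP tumor 5, the shallowest at 3892690 reads, had 16. Camkv gave r = -0.19 (permutation P = 0.594, adjusted P = 0.594; rho -0.03, permutation P = 0.947, adjusted P = 0.947; r = -0.06 without the 2) and Sncg r = 0.32 (permutation P = 0.361, adjusted P = 0.541; rho 0.27, permutation P = 0.447, adjusted P = 0.671; r = 0.57 without the 2). With the mean of each library set taken out, r was 0.61 for Sncb, 0.33 for Camkv, which changed sign, and 0.53 for Sncg. The part of depth in the Sncb values was not tested.

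The genes most opposite to Sncb over the tumors were Ehhadh (r = -0.94), a peroxisomal enzyme of fatty acid oxidation, and Tbata (-0.93). For Camkv they were Nts (-0.90), which encodes neurotensin, and Lrp11 (-0.88). These were the extremes of 17277 genes over 10 tumors and are given as a description.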
